A study of Mus musculus with 8 samples.

Results

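Secreted and membrane proteins fold in the endoplasmic reticulum, and 39 genes of that machinery were followed here in mouse quadriceps muscle that did or did not carry Nup210, a transmembrane protein of the nuclear pore complex. The genes were chosen by function, from lists of reticulum chaperones, disulfide isomerases, stress sensors, degradation genes and translocation genes, and each was found by its gene symbol in the deposited expression table. All 39 of 39 were among the 47643 genes of that table, and all 39 were among the 14229 genes that passed the filter on low values. The mice were labelled C57BL/6, and the methods of the study give the line as backcrossed to C57BL/6J. The 4 Nup210-/- mice carried a constitutive deletion of exon 2 of Nup210, made by recombination of a loxP-flanked exon with a Cre expressed from the Hprt locus, so the allele is deleted in every tissue and not in muscle fibers alone. The 4 Nup210+/+ mice were the controls, and neither group was treated. Whole snap-frozen quadriceps was homogenized, and polyadenylated RNA was sequenced with 1 library per mouse; the age and sex of these mice were not given in the sources used here.

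The reticulum receives new proteins through the Sec61 channel, attaches sugars to them with the oligosaccharyltransferase, folds them with chaperones of the Hsp70 and Hsp90 families and the lectins calnexin and calreticulin, and links their cysteines with protein disulfide isomerases. When unfolded protein accumulates, the sensors Ern1 (Ire1), Eif2ak3 (Perk) and Atf6 start the unfolded protein response, in which Xbp1, Atf4 and the cleaved form of Atf6 raise the transcription of chaperones and of the degradation machinery. In skeletal muscle the bulk of the reticulum is specialized as a calcium store, while resident fibroblasts, leukocytes and plasma cells are rich in the secretory kind.

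The values are TPM (each gene's estimated share of the transcripts of a library, adjusted for transcript length), divided in each library by a scaling factor that ran from 0.936 to 1.12. Read depth cannot be recovered from TPM, and precision was judged from how far the 4 mice of a genotype differed. The allele could not be read from the level of Nup210: its scaled TPM was 10.1, 10.9, 11.9 and 9.41 in Nup210-/- replicates 1 to 4 and 5.56, 9.76, 8.18 and 7.03 in Nup210+/+ replicates 1 to 4. Its estimate was higher in the Nup210-/- libraries, with a log2 fold change of 0.44 (SE 0.147, adjusted p = 0.231, limma with Benjamini-Hochberg adjustment). Without Nup210+/+ replicate 2 the estimate was 0.56 (adjusted p = 0.148, limma), and every Nup210-/- library then lay above every control. A value for the whole gene does not show whether exon 2 is present. Every direction given here therefore rests on the sample labels. Markers of the labelled tissue were high, as 10 skeletal muscle genes summed to between 97185 and 113764 TPM in each library.

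One library stood apart. Nup210+/+ replicate 2 had a summed TPM of 381.69 over 6 granulocyte precursor genes (Elane, Mpo, Prtn3, Ctsg, Ms4a3 and Cebpe), against 0.31 to 2.12 in the other 7 libraries, and of 72.5 over 10 genes of dividing cells, against 5.21 to 7.79. It also gave the highest value of all 8 libraries for 25 of the 39 genes. Results are therefore given with and without it.

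Lower estimates in the Nup210-/- libraries were the common pattern among the 39 genes, but none passed the test. In a limma fit over all genes tested, 0 of the 39 had a Benjamini-Hochberg adjusted p under 0.05, a threshold that 0.112% of all tested genes passed. At an unadjusted p under 0.05 in the same fit, 17 of the 39 were lower in Nup210-/- muscle, beside 7.18% of all tested genes, and 0 were higher, beside 7% of all tested genes. For 12 of the 39, or 30.8%, every Nup210-/- library lay below every Nup210+/+ library, beside 4.6% of all tested genes, and for 0 of the 39 the order was the opposite, beside 4.78%. Counts by role and list given below, with all 8 libraries, are read beside these same shares. The log2 fold change of the 39 genes was negative for 32 and positive for 7. Its median was -0.24, where the median of all tested genes was -0.01. With TPM left unscaled, the median of all tested genes was -0.08 and 38 of the 39 estimates were negative, since those of Dnajb9, Sil1, Edem3, Sel1l, Syvn1 and Derl1 were then below 0 and that of Eif2ak3 alone stayed above it.

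Without Nup210+/+ replicate 2 the differences were smaller and kept their direction for most genes. The median log2 fold change over the 39 genes was then -0.14, beside 0.00 over all tested genes, with 31 negative estimates. At an unadjusted p under 0.05, 14 of the 39 were lower (6.74% of all tested genes), and 13 of the 39, or 33.3%, did not overlap between genotypes in the lower direction (6.56% of all tested genes). The adjusted p passed 0.05 for 0 of the 39 (0.0142% of all tested genes), and the lowest was 0.0552, for Hsp90b1. When all 8 libraries were kept and weighted by their agreement with the fit, 3 of the 39 passed (0.59% of all tested genes): Hspa5, Hsp90b1 and Manf, with limma adjusted p of 0.0310, 0.0244 and 0.0361. The 12 genes without overlap among 8 libraries were all among the 13 without overlap among 7, and the gene added was Ddit3. Leaving out a control can create overlap only through the renewed scaling, so the shared genes are no separate support.

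**Figure D1:**
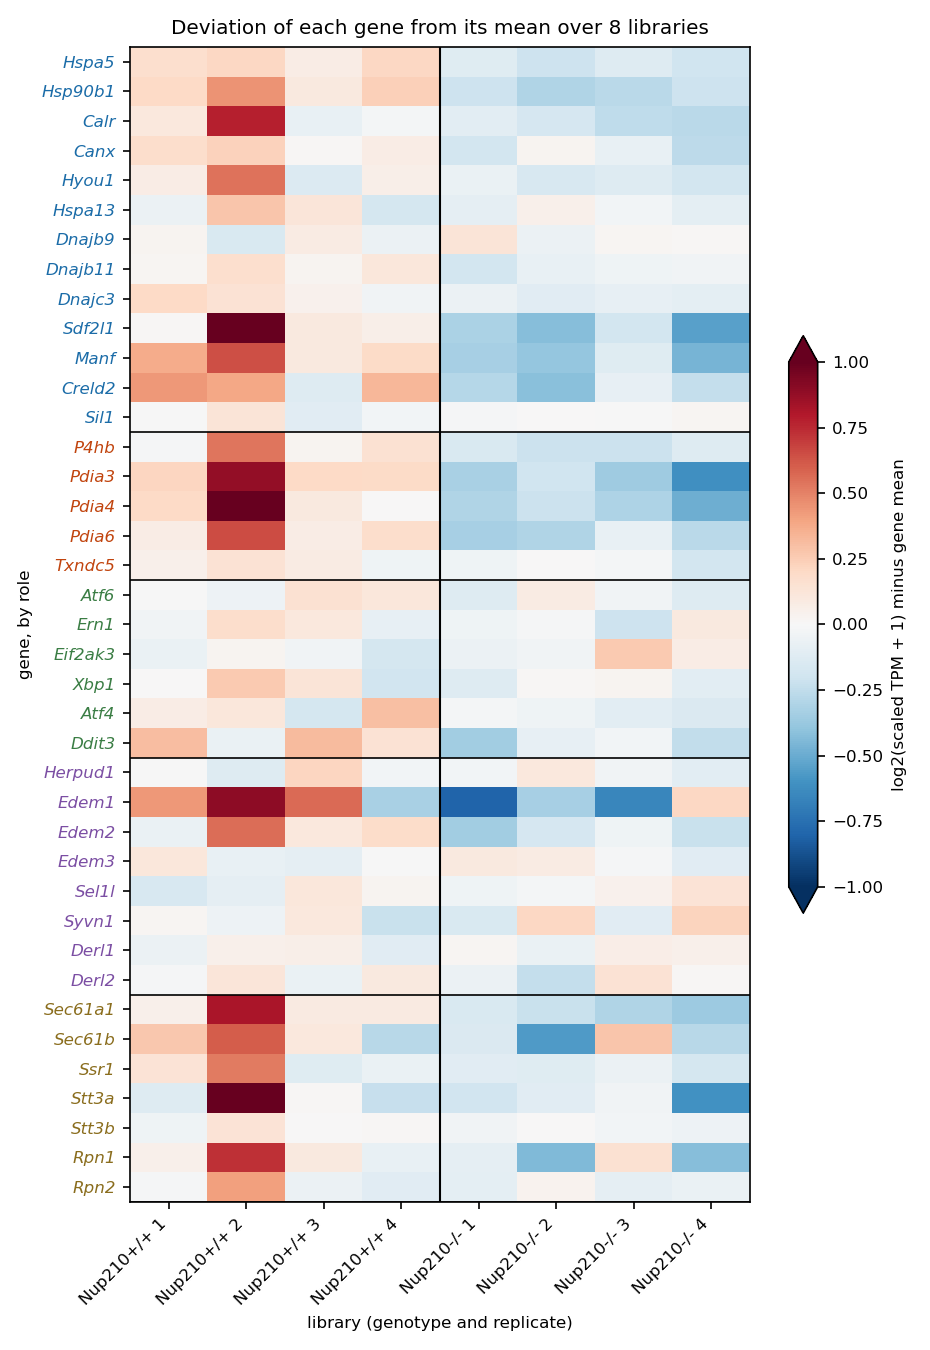
Heat map of 39 genes (rows, colored by role) in 8 libraries (columns, Nup210+/+ left of the line and Nup210-/- right of it); color is log2(scaled TPM + 1) minus the mean of the gene over the 8 libraries, cut at -1 and 1. The chaperone and isomerase rows are mostly red in the 4 Nup210+/+ libraries and blue in the 4 Nup210-/- libraries, the sensor and degradation rows are mixed, and Nup210+/+ replicate 2 holds the highest value in 25 rows.

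Some promoters of these genes hold the sequence by which the response is classically recognized. The endoplasmic reticulum stress element (ERSE) is CCAAT, any 9 bases, then CCACG, where the first part is bound by NF-Y and the second by Atf6 or Xbp1. RefSeq promoter sequences of GRCm38.p6, from 250 bases before to 50 after each transcript start, were searched on both strands. The ERSE was present in 39 of 32851 promoters (0.119%), or 37 of 27025 genes (0.137%), and in 8 of the 32 listed genes that had a promoter entry (25%). The list was chosen by function and includes genes of this response, so its higher share is no separate result of these data. There was no entry for Hyou1, Hspa13, Manf, Sil1, Atf6, Derl1 and Sec61a1. The promoters with a match were those of Hspa5, Hsp90b1, Calr, Canx, Dnajc3, Creld2, Pdia6 and Syvn1, and Hsp90b1 held 2 matches. They are printed because 7 of these 8 genes were among the 17 lower at an unadjusted p under 0.05. Each is read in the direction of the motif with the 19 bases of the ERSE in capitals. The windows lie at chr2:34772013-34772055 for Hspa5, chr10:86705626-86705668 and chr10:86705521-86705563 for Hsp90b1, chr8:84847063-84847105 for Calr, chr11:50325788-50325830 for Canx, chr14:118937815-118937857 for Dnajc3, chr15:88819508-88819550 for Creld2, chr12:17266479-17266521 for Pdia6 and chr19:6046520-6046562 for Syvn1. The genes lie on the plus strand except Hsp90b1, Calr and Canx, which lie on the minus strand, and the motif reads along the gene in 6 of the 9 matches and against it in Calr, Creld2 and the nearer match of Hsp90b1.
Hspa5: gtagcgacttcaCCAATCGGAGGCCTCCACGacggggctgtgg
Hsp90b1, farther match: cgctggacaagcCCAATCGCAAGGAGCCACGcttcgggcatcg
Hsp90b1, nearer match: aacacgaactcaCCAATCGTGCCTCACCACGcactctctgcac
Calr: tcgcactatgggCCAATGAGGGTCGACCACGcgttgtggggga
Canx: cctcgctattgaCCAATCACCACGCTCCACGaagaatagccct
Dnajc3: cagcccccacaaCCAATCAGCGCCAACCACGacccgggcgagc
Creld2: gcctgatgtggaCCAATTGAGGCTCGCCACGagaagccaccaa
Pdia6: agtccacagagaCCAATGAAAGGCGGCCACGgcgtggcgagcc
Syvn1: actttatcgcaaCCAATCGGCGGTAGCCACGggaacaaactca
The matches started between 44 bases (Syvn1) and 212 bases (the farther match of Hsp90b1) before the RefSeq start, and the 9 bases between CCAAT and CCACG held 6 or 7 G or C in every match. A shorter relative, ERSE-II (ATTGG, any 1 base, CCACG), was present in 0.0365% of all promoters and in those of Dnajb11, 8 bases after the start at chr16:22857843-22857871, and Herpud1, 52 bases before the start at chr8:94386368-94386396, both on the plus strand and here with the motif in capitals.
Dnajb11: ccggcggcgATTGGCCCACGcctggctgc
Herpud1: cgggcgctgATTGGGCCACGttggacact
Canx, Creld2, Syvn1 and Herpud1 are printed although the rule for naming genes did not select them, a choice made with their values known. The UPRE (TGACG followed directly by TGG) was present in 0.676% of all promoters and, of the listed genes, in that of Txndc5. The CARE (TGATG, any base, AA), read by Atf4, was present in 3.97% of all promoters and in those of Txndc5 and Herpud1. A match is a description of the letters and not a bound site.

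The 8 genes with an ERSE had a median log2 fold change of -0.36. Of these, 7 had a negative estimate with an unadjusted p under 0.05, the count for which they were printed, and 5 had no overlap between genotypes. Without Nup210+/+ replicate 2 the median was -0.26. The 24 listed genes with a promoter entry and no ERSE had a median of -0.16, with 8 at an unadjusted p under 0.05 in the lower direction and 5 without overlap. Without Nup210+/+ replicate 2 their median was -0.11, with 6 lower without overlap, beside 5 of the genes with an ERSE. Outside the list, 29 genes held an ERSE, of which 7 passed the filter on low values. Their median was -0.07 (-0.03 without Nup210+/+ replicate 2), and 0 of the 7 were lower at an unadjusted p under 0.05. Acacb, chosen after its value was seen, had the one estimate past that threshold, at 0.29 (adjusted p = 0.209, limma). When the last base of the ERSE was left free, a search added after the first matches were seen, Pdia3, Pdia4, Herpud1 and Derl2 also matched. This made 12 of 32 genes (37.5%), beside 0.429% of 27025 genes, or 0.365% of all promoters. No test was made of the difference between genes with and without the motif.

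The luminal chaperones and their cofactors had the most genes without overlap. Of 13, 7 (53.8%) were lower in every Nup210-/- library, beside 4.6% of all tested genes. An unadjusted p under 0.05 in the lower direction was reached by 9 (69.2%), beside 7.18%. The median log2 fold change was -0.27 (-0.20 without Nup210+/+ replicate 2). Hspa5 (BiP), the Hsp70 of the reticulum and the regulator of its 3 stress sensors, was the most abundant of the 39 genes per length, with a mean scaled TPM of 153 over the 8 libraries. It lies at chr2:34771970-34777547 on the plus strand of GRCm38. Its scaled TPM was 139, 131, 139 and 132 in Nup210-/- replicates 1 to 4 and 171, 175, 159.7 and 175 in Nup210+/+ replicates 1 to 4. The genotypes were separated by a gap wider than the range within either, and Nup210+/+ replicate 2 was not extreme. The means were 135 ± 4.22 and 170.3 ± 7.35 (SD, n = 4 each), a log2 fold change of -0.33 (SE 0.053, 95% interval -0.45 to -0.21, adjusted p = 0.0552 by limma with Benjamini-Hochberg adjustment, -0.31 without Nup210+/+ replicate 2).

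Hsp90b1 (Grp94), the Hsp90 of the reticulum, lies at chr10:86690209-86705509 on the minus strand, where its exons overlap those of Gm15344 and Gm25745 on the same strand. It had scaled TPM of 94.7, 88.6, 90.3 and 94.3 in the Nup210-/- replicates and 126, 149, 117 and 129 in the Nup210+/+ replicates. All 4 controls were higher, and replicate 2 was the highest. Its log2 fold change was -0.49 (SE 0.0759, 95% interval -0.66 to -0.32), and its adjusted p of 0.0540 in limma was the lowest of the 39 genes. Without Nup210+/+ replicate 2 the estimate was -0.42. For each of the 12 genes without overlap, the two-sided exact permutation test over the 70 labellings of 8 libraries gave 0.0286, the smallest p this design allows. Every gene without overlap gets this p, so it restates the lack of overlap and is no separate support.

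Calr (calreticulin), a lectin that binds glycoproteins and stores calcium, was the gene after Hspa5 in abundance, with a mean scaled TPM of 139. It lies at chr8:84841850-84846934 on the minus strand. Scaled TPM of Calr was 126, 120.2, 113 and 112 in the Nup210-/- replicates and 146, 233, 129 and 134 in the Nup210+/+ replicates. The gap between genotypes was narrow, from 126 to 129, and Nup210+/+ replicate 2 was far above the other controls. Its log2 fold change was -0.40 (SE 0.169, adjusted p = 0.332, limma), and -0.20 without that library. Canx (calnexin), the membrane-bound partner of calreticulin, had means of 52.7 ± 4.79 and 62.6 ± 4.35 (SD, n = 4 each) and overlapped between genotypes, with a log2 fold change of -0.25 (adjusted p = 0.219, limma).

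Manf, a secreted stress-response factor that binds Hspa5, had no single control far from the rest. It was measured at a scaled TPM of 24.8, 23.8, 28.9 and 22.6 in the Nup210-/- replicates and 41.2, 49.9, 33.9 and 36.3 in the Nup210+/+ replicates. The highest Nup210-/- library, at 28.9, lay below the lowest control, at 33.9. The log2 fold change was -0.66 (SE 0.124, 95% interval -0.94 to -0.38, adjusted p = 0.0911, limma), and -0.55 without Nup210+/+ replicate 2. The gene lies at chr9:106838312-106891979 on the minus strand, and its exons overlap those of Rbm15b on the same strand, so that reads of these genes could be divided between them. Creld2, which also encodes a secreted stress-response protein of the reticulum, overlapped in a single place: Nup210-/- replicate 3 at 6.46 lay above Nup210+/+ replicate 3 at 6.22. Its log2 fold change was -0.51 (adjusted p = 0.170, limma).

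Sdf2l1, a partner of the Hspa5 cofactor Dnajb11, was a low gene whose size of difference depended on 1 library. It lies at chr16:17130138-17132383 on the minus strand. Scaled TPM of Sdf2l1 was 5.02, 4.59, 5.62 and 4.16 in the Nup210-/- replicates and 6.56, 17.6, 7.06 and 6.82 in the Nup210+/+ replicates. Replicate 2 was the sole control above 7.06, and the other controls still lay above every Nup210-/- library. The log2 fold change was -0.74 (SE 0.271, adjusted p = 0.271, limma) and -0.42 without that library.

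The Hspa5 cofactors Dnajb11 and Dnajc3, which deliver clients to it and stimulate its ATPase, had small differences without overlap. Dnajb11, at chr16:22857845-22879634 on the plus strand, had scaled TPM of 24.8, 26.8, 27.4 and 27.5 in the Nup210-/- replicates and 28.7, 31.9, 28.7 and 30.7 in the Nup210+/+ replicates. Dnajc3, at chr14:118937976-118981697 on the plus strand, had 20.1, 19.3, 19.7 and 19.6 against 24.2, 23.2, 21.6 and 20.5. In neither gene was Nup210+/+ replicate 2 far from the other controls. Both log2 fold changes were -0.17, with adjusted p of 0.282 and 0.288 in limma, and they were -0.14 and -0.15 without that library, when neither had an unadjusted p under 0.05. Of the other chaperone genes, Hyou1, a large Hsp70 relative that serves as a nucleotide exchange factor, had an estimate of -0.27 that was -0.14 without Nup210+/+ replicate 2. Hspa13 was at -0.08 (95% interval -0.32 to 0.16), Sil1, the other exchange factor of Hspa5, at 0.00 (95% interval -0.15 to 0.15), and Dnajb9, which brings Hspa5 to Ire1, at 0.05 (95% interval -0.11 to 0.21). Dnajb9 was lowest in Nup210+/+ replicate 2, at 41.6, against 44.6 to 51.0 in the other libraries, which set it against the other genes of its role.

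**Figure D2:**
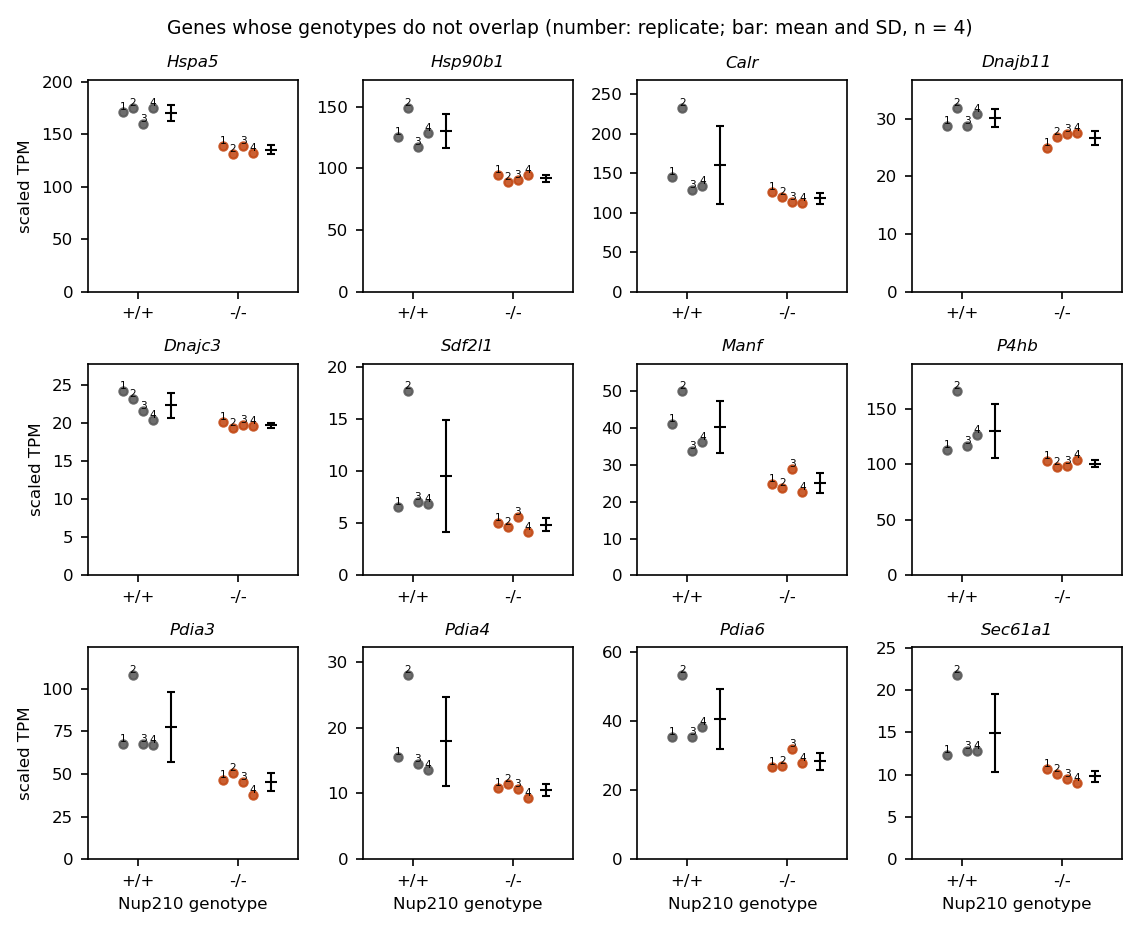
Scaled TPM (vertical axes, from 0) of the 12 genes whose genotypes did not overlap, with 4 Nup210+/+ libraries in grey and 4 Nup210-/- libraries in orange, numbered by replicate; bars give the mean and SD. In Hspa5, Dnajb11 and Dnajc3 the controls lie close together, whereas in Calr, Sdf2l1, Pdia3, Pdia4, Pdia6 and Sec61a1 Nup210+/+ replicate 2 lies far above the other controls.

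Disulfide isomerases had the largest median difference of the 5 roles. Of 5 genes, 4 (80%) had lower values in every Nup210-/- library, beside 4.6% of all tested genes. The same 4 had an unadjusted p under 0.05, beside 7.18% in the lower direction. The median log2 fold change was -0.49. Without Nup210+/+ replicate 2 it was -0.35, again with 4 without overlap (6.56% of all tested genes). Pdia3 (ERp57), which works with calnexin and calreticulin on glycoproteins, lies at chr2:121413775-121438687 on the plus strand. Scaled TPM of Pdia3 was 46.5, 50.8, 45.5 and 37.9 in the Nup210-/- replicates and 67.7, 108, 67.3 and 66.9 in the Nup210+/+ replicates. Apart from replicate 2, the controls were within 1 TPM of each other and well above the Nup210-/- libraries. The log2 fold change was -0.74 (SE 0.160, 95% interval -1.10 to -0.38, adjusted p = 0.117, limma), and -0.57 without that library.

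Pdia4 (ERp72), an isomerase found in complexes with Hspa5 and Hsp90b1, lies at chr6:47796141-47813430 on the minus strand, where the microRNA gene Mir704 overlaps it on the same strand. It had scaled TPM of 10.8, 11.4, 10.7 and 9.30 in the Nup210-/- replicates and 15.6, 28.0, 14.5 and 13.5 in the Nup210+/+ replicates. Replicate 2 was again the highest control, and the others lay above the Nup210-/- range. Its log2 fold change was -0.66 (SE 0.200, adjusted p = 0.203, limma), and -0.43 without that library. Pdia6, an isomerase that acts with Hspa5 and also binds Ire1, lies at chr12:17266545-17284770 on the plus strand. Its scaled TPM was 26.5, 27.1, 31.9 and 27.7 in the Nup210-/- replicates and 35.4, 53.3, 35.4 and 38.1 in the Nup210+/+ replicates. Its log2 fold change of -0.49 (SE 0.130, adjusted p = 0.170, limma) was -0.35 without Nup210+/+ replicate 2.

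P4hb, the founding protein disulfide isomerase and also a subunit of the collagen prolyl 4-hydroxylase, lies at chr11:120560298-120573253 on the minus strand. For P4hb, scaled TPM was 102, 97.7, 98.0 and 104 in the Nup210-/- replicates and 113, 166, 116 and 126 in the Nup210+/+ replicates. The genotypes did not overlap, with replicate 2 the highest control. Its log2 fold change was -0.35 (SE 0.112, adjusted p = 0.212, limma) and -0.23 without that library. Txndc5, a thioredoxin-domain isomerase, overlapped between genotypes and had an estimate of -0.12 (95% interval -0.27 to 0.03).

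Across the 13 chaperone genes and 5 isomerases together, the summed TPM as deposited was 748, 763, 784 and 703 in the Nup210-/- replicates and 990, 1275, 1020 and 910 in the Nup210+/+ replicates. The ratio of the group means was 0.715. The lowest control sum was above the highest Nup210-/- sum, which was also so for sums of scaled TPM (751 to 790 against 908 to 1231).

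**Figure D3:**
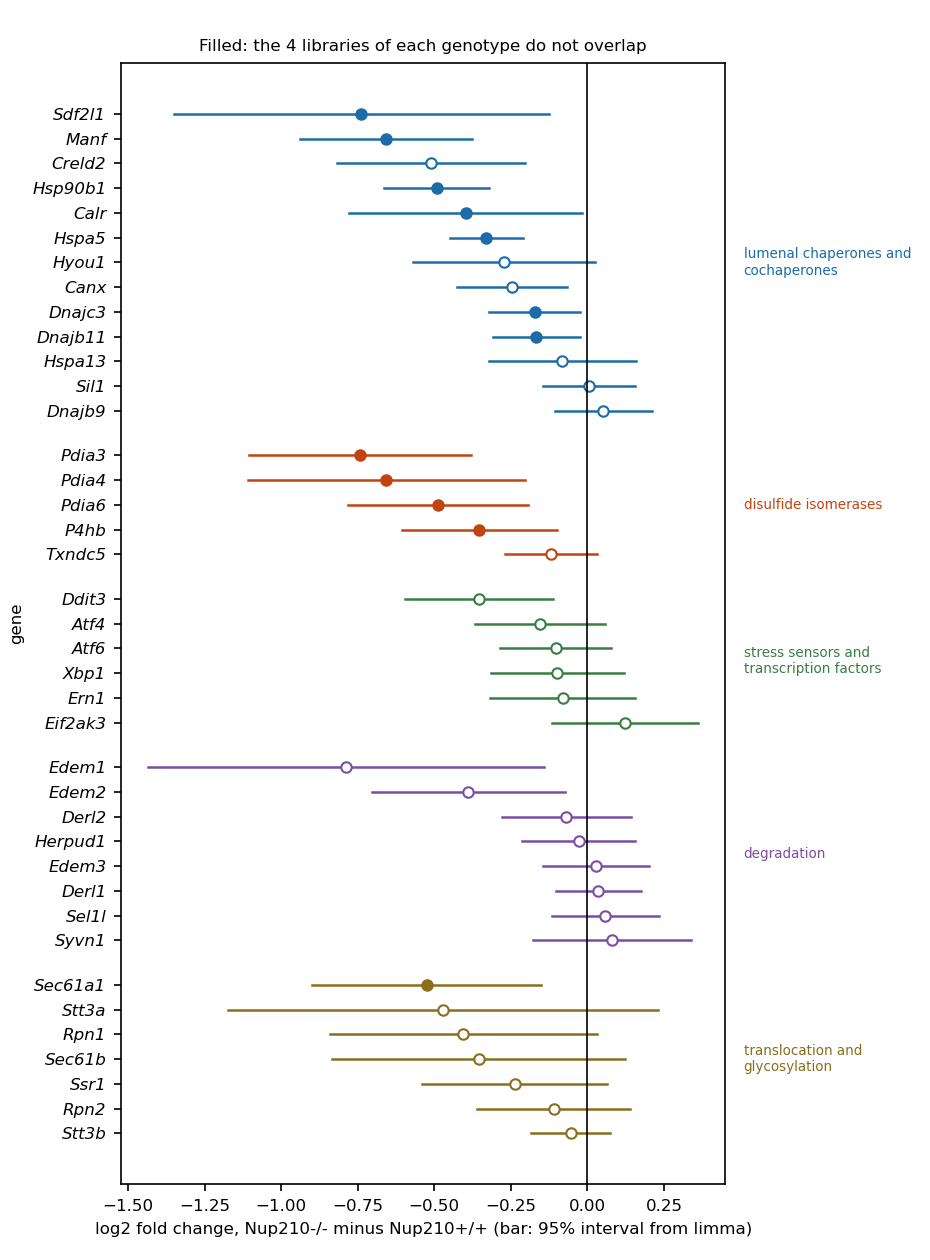
Log2 fold change of the 39 genes (horizontal axis, Nup210-/- minus Nup210+/+, log2(scaled TPM + 1) scale) with 95% limma intervals, grouped and colored by role; filled points are genes whose genotypes did not overlap. Intervals of 17 genes lie wholly below 0, of which 13 are chaperones or isomerases, and none lies wholly above 0.

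Sensors and transcription factors of the response differed less. Of 6 genes, 0 were without overlap, and the median log2 fold change was -0.10 (-0.09 without Nup210+/+ replicate 2). An unadjusted p under 0.05 in the lower direction was reached by 1 (16.7%), beside 7.18% of all tested genes. Ddit3 (Chop), the transcription factor induced late in the response, was that gene. Its scaled TPM was 15.2, 18.4, 19.2 and 16.4 in the Nup210-/- replicates and 24.6, 18.7, 24.7 and 21.7 in the Nup210+/+ replicates. Here Nup210+/+ replicate 2 was the lowest control and the one that overlapped the Nup210-/- range. The log2 fold change was -0.35 (SE 0.107, adjusted p = 0.203, limma) with all libraries and -0.43 without it, when the genotypes no longer overlapped. The gene lies at chr10:127290774-127296288 on the plus strand. Its exons overlap those of a further annotated Ddit3 gene on the same strand, so that reads could be divided between them.

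The other 5 sensor and factor genes overlapped between genotypes. Atf4, the effector of Perk, was at 116 ± 4.53 in Nup210-/- and 130.2 ± 17.6 in Nup210+/+ muscle (SD, n = 4 each), a log2 fold change of -0.15 (95% interval -0.37 to 0.06). Xbp1, whose mRNA is spliced by Ire1 in a way that these gene-level values do not show, was at -0.10 (95% interval -0.31 to 0.12). The sensors themselves were low to moderate in abundance. Atf6 had a mean scaled TPM of 11.1 and an estimate of -0.10, Ern1 had 3.44 and -0.08, and Eif2ak3 had 3.09, the lowest of the 39 genes, and the most positive estimate, 0.12 (95% interval -0.12 to 0.36). Each of these intervals includes 0, and none excludes a difference of 0.1 on the log2 scale in the lower direction.

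Degradation genes were divided in direction, 4 with negative and 4 with positive estimates, with a median of 0.00 and 0 without overlap. The 2 that had an unadjusted p under 0.05 were Edem1 and Edem2, which mark misfolded glycoproteins for export by trimming mannose. Edem2, the one with the lowest unadjusted p of its role, had scaled TPM of 3.38, 3.95, 4.41 and 3.78 in the Nup210-/- replicates and 4.31, 7.22, 4.99 and 5.31 in the Nup210+/+ replicates. It overlapped where Nup210-/- replicate 3 exceeded Nup210+/+ replicate 1, and its log2 fold change was -0.39 (SE 0.139, adjusted p = 0.262, limma; -0.26 without Nup210+/+ replicate 2). Edem1 had the most negative estimate of the 39 genes, -0.79, but an SE of 0.286 and an adjusted p of 0.267 in limma, and without Nup210+/+ replicate 2 it was at -0.62 and no longer had an unadjusted p under 0.05. It ranged from 2.52 to 6.06 scaled TPM in Nup210-/- and from 3.88 to 10.4 in Nup210+/+ muscle. The paralog Edem3 was at 0.03 (95% interval -0.15 to 0.20).

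The membrane complex that returns proteins to the cytosol showed small estimates of either sign. Sel1l, its adaptor, was at 0.06 and Syvn1 (Hrd1), its ubiquitin ligase, at 0.08 (95% interval -0.18 to 0.34). Of the ERSE matches printed, that of Syvn1 lies nearest to a start. The derlins that form the retrotranslocation site were at 0.04 for Derl1 (95% interval -0.10 to 0.18) and -0.07 for Derl2. Herpud1, which organizes the complex and is among the strongest targets of the response in other settings, was one of the 5 most abundant of the 39 genes, at 110.1 ± 6.89 in Nup210-/- and 113 ± 11.8 in Nup210+/+ muscle (SD, n = 4 each), with an estimate of -0.03 (95% interval -0.21 to 0.16).

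Translocation and glycosylation genes all had negative estimates, 7 of 7, but most of the size came from Nup210+/+ replicate 2. Their median log2 fold change was -0.36 with that library and -0.12 without it. Sec61a1, the pore-forming subunit of the Sec61 channel, was the one gene of the role without overlap and with an unadjusted p under 0.05. It lies at chr6:88503579-88518905 on the minus strand. For Sec61a1, scaled TPM was 10.6, 10.04, 9.46 and 9.03 in the Nup210-/- replicates and 12.4, 21.8, 12.7 and 12.8 in the Nup210+/+ replicates. The remaining controls were close together and all above the Nup210-/- libraries, so the difference was smaller but present without replicate 2: the log2 fold change was -0.52 (SE 0.165, adjusted p = 0.211, limma) with it and -0.34 without.

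The other 6 genes of this role overlapped between genotypes. Stt3a, a catalytic subunit of the oligosaccharyltransferase, was at 31.2 scaled TPM in Nup210+/+ replicate 2 and between 7.67 and 12.3 in the other 7 libraries, and its estimate went from -0.47 to -0.12 when that library was left out. Its paralog Stt3b was at -0.05 (95% interval -0.18 to 0.07). Rpn1, which hands substrates to the same enzyme, went from -0.40 to -0.23, and Rpn2 from -0.11 to 0.01. Sec61b, a small subunit of the channel, was at -0.36, or -0.21 without Nup210+/+ replicate 2, and ranged widely within each genotype, from 33.7 to 61.4 scaled TPM in Nup210-/- and from 41.4 to 77.3 in Nup210+/+ muscle. Ssr1, of the translocon-associated protein complex, was at -0.24, and at -0.10 without Nup210+/+ replicate 2.

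**Figure D4:**
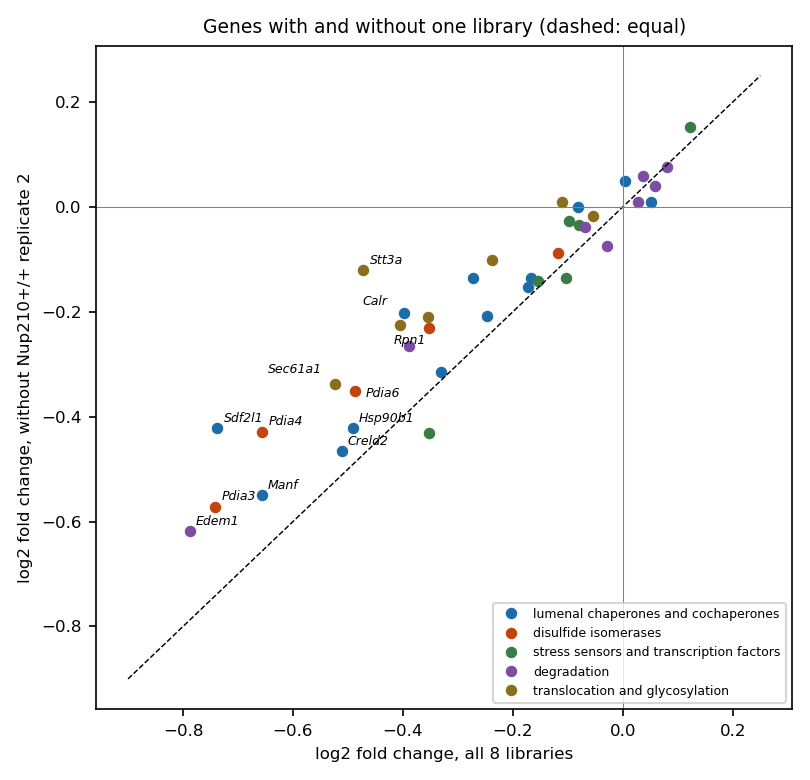
Log2 fold change of the 39 genes (Nup210-/- minus Nup210+/+) with all 8 libraries (horizontal axis) and without Nup210+/+ replicate 2 (vertical axis), colored by role; the dashed line marks equal values. Points above the line moved toward 0 or upward, most of all Stt3a (-0.47 to -0.12) and Sdf2l1 (-0.74 to -0.42), while Hspa5 (-0.33 to -0.31) stayed near it.

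Other gene lists of the same biology were read in the same limma fit. Of 48 other reticulum folding and secretory genes, 47 were tested, 0 passed an adjusted p of 0.05, 9 had an unadjusted p under 0.05 in the lower and 1 in the higher direction, and the median log2 fold change was -0.13 (-0.09 without Nup210+/+ replicate 2). The most negative were Fkbp11, a reticulum prolyl isomerase of secretory cells, at -0.76, of which -0.21 remained without Nup210+/+ replicate 2, and Serp1, which protects nascent proteins at the translocon, at -0.61, or -0.36 without that library (9.03 ± 0.842 against 14.99 ± 6.32 scaled TPM, SD, n = 4 each). The most positive were Srpr, the signal recognition particle receptor, at 0.20 (181 ± 6.85 against 158 ± 8.97 scaled TPM, no overlap, adjusted p = 0.201 in limma), and Sec61g, at 0.17, which was 0.08 without Nup210+/+ replicate 2 and turned to -0.10 without Nup210-/- replicate 1. Of the genes lower without overlap, Kdelr2, a receptor that returns luminal chaperones from the Golgi, had an estimate of -0.26, and Sec63, the Hspa5 cofactor at the channel, one of -0.38. Both were picked after their values were seen.

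Targets of the Perk and Atf4 branch had estimates of both signs, 11 negative and 5 positive. Of 19, 16 were tested, 0 passed an adjusted p of 0.05, and 3 had an unadjusted p under 0.05 in the lower and 2 in the higher direction. The median log2 fold change was -0.20, or -0.12 without Nup210+/+ replicate 2. Lower without overlap were 1 with all libraries and 3 (18.8%) without that library, beside 6.56% of all tested genes. Higher without overlap was 1, with or without that library. Atf3, a stress-induced transcription factor, was at 3.28 ± 1.35 in Nup210-/- and 10.2 ± 4.37 in Nup210+/+ muscle (SD, n = 4 each), without overlap, at a log2 fold change of -1.36 (SE 0.291, adjusted p = 0.117, limma). Psat1, of serine synthesis, was at -1.05, or -0.45 without Nup210+/+ replicate 2. Ddit4, an inhibitor of mTORC1 signaling, had the opposite sign, with 14.0 ± 2.39 against 8.27 ± 2.69 scaled TPM and an estimate of 0.73 (adjusted p = 0.181, limma). Vldlr, a lipoprotein receptor, was at 0.23.

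Genes that fold collagen, a main secreted product of fibroblasts, had mostly negative estimates. Of 13, 12 were tested, 0 passed an adjusted p of 0.05, 5 had an unadjusted p under 0.05 in the lower and 0 in the higher direction, 4 did not overlap, and the median was -0.19. Serpinh1 (Hsp47), the collagen-specific chaperone, was at 50.8 ± 2.82 in Nup210-/- and 81.1 ± 12.9 in Nup210+/+ muscle (SD, n = 4 each), a log2 fold change of -0.65 (SE 0.107, adjusted p = 0.0599, limma) that was -0.73 without Nup210+/+ replicate 2. Crtap, of the prolyl 3-hydroxylation complex, was at -0.46, or -0.28 without Nup210-/- replicate 4, P4ha2, a prolyl 4-hydroxylase subunit, at -0.07, and the lysyl hydroxylase Plod3 at 0.02.

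In the cytosol, 1 of 19 heat shock genes passed the test. Hsp90aa1, the inducible cytosolic Hsp90, fell by 0.98 on the log2 scale, from 126 ± 26.5 in Nup210+/+ to 62.7 ± 6.77 in Nup210-/- muscle (SD, n = 4 each, adjusted p = 0.0497, limma), and it did not pass when any 1 of the 8 libraries was left out (adjusted p = 0.0551 to 0.171; -0.85 without Nup210+/+ replicate 2). A further 8 had an unadjusted p under 0.05 in the lower direction, among them Hspa1b, an inducible Hsp70, at -0.92, and the median was -0.15. The small heat shock proteins Cryab and Hspb8, abundant in muscle fibers, were at 0.14 and 0.05.

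Fibroblast and general leukocyte markers also had lower estimates in the Nup210-/- libraries. The summed TPM of 10 fibroblast markers was 741 to 876 in the Nup210-/- libraries and 927 to 1491 in the Nup210+/+ libraries, with 10 of 10 estimates negative, 8 of them at an unadjusted p under 0.05. Of 12 general leukocyte markers, summing to 245 to 271 against 280 to 549 TPM, 12 of 12 estimates were negative, and 9 were at an unadjusted p under 0.05. One of them, Cd52, a surface glycoprotein of lymphocytes, passed the test and fell by 0.81 on the log2 scale, from 6.49 ± 0.855 in Nup210+/+ to 3.26 ± 0.135 scaled TPM in Nup210-/- muscle (SD, n = 4 each, adjusted p = 0.0490, limma), with an estimate of -0.81 and an adjusted p of 0.0552 without Nup210+/+ replicate 2. Plasma cell markers, cells with a very large reticulum, summed to 63.2 to 74.2 against 85.6 to 188 TPM over 8 genes, but after scaling the genotypes overlapped (64.0 to 79.3 against 76.2 to 197). Igkc and Jchain, the defining secreted products of plasma cells, were above 0 in all 8 libraries, with scaled TPM of 4.95 to 7.61 and 0.571 to 1.04 in Nup210-/- muscle and 7.97 to 89.9 and 1.18 to 9.80 in Nup210+/+ muscle. They were chosen with their values known and had the most negative estimates of the 5 plasma cell markers tested. The other tested markers, Ighm, Mzb1 and Sdc1, overlapped between genotypes, with estimates of -0.19, -0.30 and -0.12. The 10 skeletal muscle markers ran the other way, with 105053 to 113764 TPM in Nup210-/- and 97185 to 104816 in Nup210+/+ libraries, an order that overlapped after scaling (106451 to 114272 against 86532 to 109840).

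Within the Nup210+/+ group the highest library differed from sum to sum, and from marker to marker within a sum. Replicate 3 had the highest fibroblast sum (1491) and leukocyte sum (549), and replicate 4 the highest plasma cell sum (188). Replicate 2 had the highest chaperone and isomerase sum (1275) and the highest granulocyte precursor sum (381.69). Abundant genes weigh most in a sum, and Dcn alone gave 850 TPM of the fibroblast sum in replicate 3. In scaled TPM, the leukocyte markers Ptprc, Itgam, Tyrobp, Laptm5 and Coro1a were highest in replicate 2 and the others in replicate 3. Of the fibroblast markers, Col1a1, Col1a2, Col3a1 and Postn were highest in replicate 4, Fbn1 in replicate 1 and the others in replicate 3. The order among the controls does not bear on the difference between genotypes. The part of these cell types in the lower chaperone values was not tested, and in RNA from whole muscle, fewer cells of a type and less RNA per cell cannot be told apart.

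**Figure D5:**
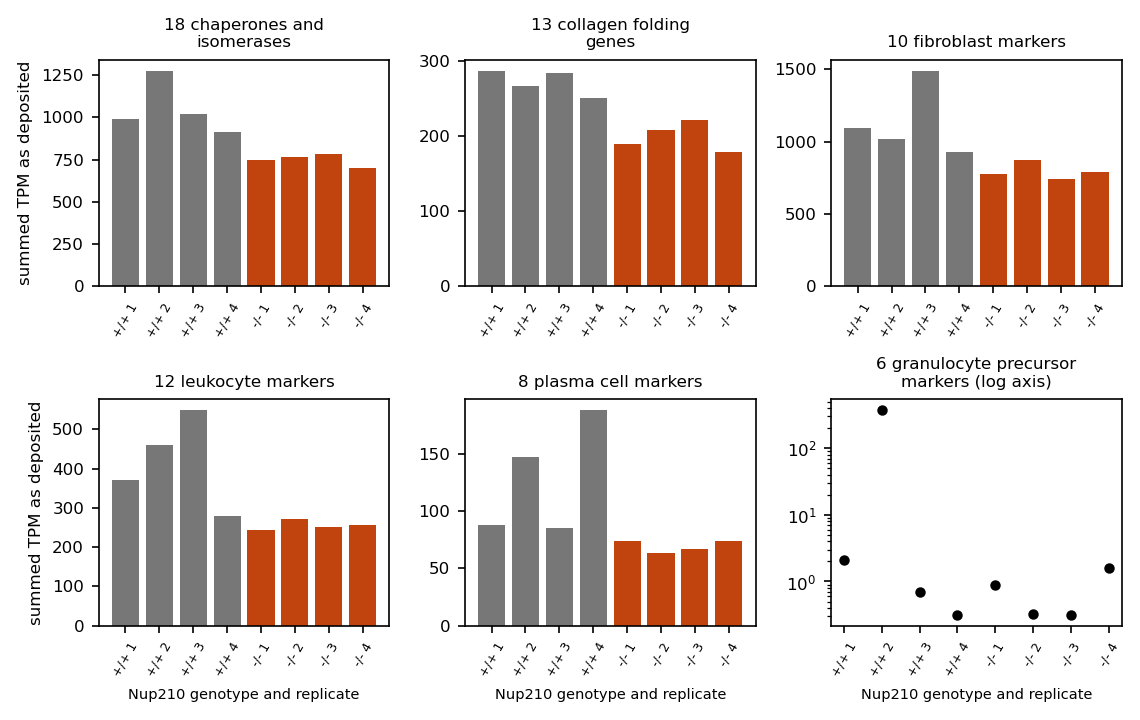
Summed TPM as deposited in each of the 8 libraries (Nup210+/+ grey, Nup210-/- orange) for 18 chaperone and isomerase genes, 13 collagen folding genes, 10 fibroblast, 12 leukocyte and 8 plasma cell markers (bars from 0) and 6 granulocyte precursor markers (points on a log axis). The 4 Nup210-/- sums lie below all 4 Nup210+/+ sums in the 5 bar panels, and the granulocyte sum stands out in Nup210+/+ replicate 2, at 381.69.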

How the data were processed

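RNA of 8 quadriceps muscles was sequenced by the authors as directional, polyadenylated, single-end libraries. The authors trimmed reads with cutadapt 2.3, aligned them to mm10 with STAR 2.7.0d and estimated expression with RSEM 1.3.1 (versions from the submitters' processing notes) and Ensembl annotations, and they deposited TPM per gene and library, with no pooling; the strand setting of RSEM was not given in the sources used here. Their estimated counts were not used here. Here, TPM were scaled by the median of ratios over the 15225 genes above 0 in all libraries, and log2(scaled TPM + 1) was fitted for 14229 genes (mean TPM 0.5 or more) with limma 3.58.1 in R 4.3.3 (genotype only, eBayes with trend, Benjamini-Hochberg adjustment over all genes tested). Fold changes on this scale are understated for low genes. Exact permutation tests used scaled TPM.

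The genes, lists and tests were chosen with earlier results of these data known. Genes were given library by library where the adjusted p was under 0.05 or genotypes did not overlap, and also the gene with the lowest p of each role; of other lists, those past an adjusted p of 0.05, the 2 largest and the 2 smallest fold changes; and Nup210. Gene positions are from GENCODE M21 on GRCm38, where 4 of the 39 genes share exonic sequence with another gene on their strand and 14 with one on the opposite strand. Promoters are from RefSeq (GRCm38.p6). The alternatives were other pseudocounts (0.1 and 0.5), filters, scalings and variance models, library weights, a replicate block and each library left out. No protein sequences were used here.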

Additional observations from a re-analysis of the deposited data

Results flagged for a closer look

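In a group of 4 libraries, a value is set out here when its gap to the nearest other library, divided by the range of the group, was above the 95% critical value of Dixon's test. Chance flags about 1 in 20 groups, or 5.5 of the 110 groups tested here, and 10 were above it. Nup210+/+ replicate 2 accounted for 9 of the 10, as the highest library in each. Among the 39 genes these were 7, all in scaled TPM. Calr was at 232.9 where the other controls were at 129 to 146, and Sdf2l1 was at 17.6 where they were at 6.56 to 7.06. Pdia3 was at 108 against 66.9 to 67.7, Pdia4 at 28.0 against 13.5 to 15.6, and Pdia6 at 53.3 against 35.4 to 38.1. Sec61a1 was at 21.8 against 12.4 to 12.8, and Stt3a at 31.2 against 10.3 to 12.3. The summed TPM of granulocyte precursor markers was 381.69 in the same library against 0.31 to 2.12 in the other controls, and that of dividing-cell markers 72.5 against 5.59 to 7.79. Hspa5, Manf, Dnajb11 and Dnajc3 were not among these values. The last was the summed TPM of Perk and Atf4 targets in Nup210-/- replicate 3, at 301.21, against 249.68 to 258.06 in the other Nup210-/- libraries.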

How the results depend on the processing

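Under the alternatives run, the count of the 39 genes past an adjusted p of 0.05 in limma moved from 0 to 2 with TPM as deposited (Hspa5 at -0.42 and Hsp90b1 at -0.59, each with an adjusted p of 0.0334, in a table whose median of all genes was then -0.08) and to 3 with library weights. The median log2 fold change of the 39 genes, -0.24, became -0.32 with TPM as deposited and -0.14 without Nup210+/+ replicate 2. Leaving out 1 library at a time gave 0 to 0 genes past an adjusted p of 0.05, 13 to 19 lower at an unadjusted p under 0.05 (5.58 to 9.51% of all tested genes), 0 to 0 higher, 12 to 16 lower without overlap (6.12 to 8.91%), and a median of -0.28 to -0.14. With TPM as deposited, 21 genes were lower at an unadjusted p under 0.05 (11.8% of all tested genes, with 2.35% higher) and 15 lower without overlap (6.87%). The 16 genes of the whole table past an adjusted p of 0.05 were 1 with any TPM above 0 as the filter, 27 with a mean TPM of 1, 7 with upper-quartile scaling, 0 without the variance trend, 84 with library weights and 0 to 10 with 1 library left out. With the replicate number as a block (replicate block), 0 of the 39 genes and 0 of all genes passed an adjusted p of 0.05, and 16 of the 39 were lower at an unadjusted p under 0.05 (6.76% of all tested genes). Same-numbered libraries did not deviate together (r across genes of -0.03 to 0.09 in 4 pairs), and differently numbered ones gave -0.08 to 0.10. A lack of correlation cannot show whether the mice were paired, and the main fit used no pairing. Hsp90aa1 also lost its call in the block (adjusted p = 0.232), without the trend (0.105), with the wider filter (0.0780) and with upper-quartile scaling (0.0511), Cd52 lost its call in the block (0.226), without the trend (0.0638), with the wider filter (0.0695), with TPM as deposited (0.0562) and without any 1 library other than Nup210+/+ replicate 4 (0.0521 to 0.139), and Serpinh1 gained one with TPM as deposited (0.0462) and with library weights (0.0244).

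Signs turned mostly for genes near 0 on the log2 scale. Sec61g and Rpn2, at 0.17 and -0.11 with all libraries, turned when 1 library was left out. The cause was not tested. With TPM as deposited, the median of all tested genes moved from -0.01 to -0.08. The genes whose signs turned were then Dnajb9 at -0.042, Sil1 at -0.085, Edem3 at -0.062, Sel1l at -0.032, Syvn1 at -0.0082, Derl1 at -0.057, Plod3 at -0.065 and Hspb8 at -0.042. With upper-quartile scaling they were Sil1 at -0.032, Edem3 at -0.0082, Derl1 at -0.0013 and Plod3 at -0.012, and with library weights Edem3 at -0.0049. With 1 library left out, Sil1 ranged from -0.030 to 0.049, Herpud1 from -0.075 to 0.041, Edem3 from -0.0014 to 0.070, Rpn2 from -0.17 to 0.0088, Sec61g from -0.10 to 0.33 and Plod3 from -0.023 to 0.075. No other sign turned among the named genes for which these alternatives were run, and none of the 12 genes without overlap was among these. The limit that depth sets could not be given, since TPM carry no read counts.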
